A study of Mus musculus with 12 samples.

Results

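Immune cluster 15 of the mouse hippocampus held 240 of the 19834 deposited cells. Its members were taken by the authors' own annotation, as cells of the type Immune in cluster 15, and they are described against the other immune cluster, 14, with 309 cells, and against the 4530 cells annotated as microglia. The cluster carries a working name of MHC class II immune cells, with Cd74, H2-Eb1 and H2-Aa as markers. The cells did not bear that name out. H2-Aa was found in 15.4% of them and H2-Eb1 in 13.8%, whereas Mrc1 was found in 80% and Pf4 in 78.8%, so the group is called cluster 15 here, by its rule.

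Hippocampi came from 9-week-old female C57/BL6J mice treated with PBS or with cisplatin, a chemotherapy drug whose platinum binds DNA. Within each arm mice were left without stimulation (nonstim) or given 40 Hz light flicker and sound pulses for 1 h a day over 21 days (stim), and tissue was collected on day 22. This gave PBS nonstim and PBS stim in one arm and Cisplatin nonstim and Cisplatin stim in the other, at 3 libraries a group. Replicate 1 of each group pooled 2 hippocampi of 1 animal and carries the library prefix 20 (first batch), and replicates 2 and 3 pooled 4 hippocampi of 2 animals each and carry the prefix 21 (second batch). The design asks whether stimulation alters the effect of cisplatin, and this is asked here of cluster 15.

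Major histocompatibility complex (MHC) class II molecules are pairs of an alpha and a beta chain that show peptides from engulfed protein to CD4 T cells. H2-Aa and H2-Ab1 encode one such pair, H2-Eb1 a second beta chain, Cd74 the invariant chain that guards the peptide groove, H2-DMa and H2-DMb1 the chaperone that loads peptide, and Ciita the transactivator that switches these genes on. In the healthy brain few cells carry them. Macrophages of the meninges, perivascular spaces and choroid plexus, known as border-associated macrophages, differ from parenchymal microglia by genes such as Mrc1 (the mannose receptor CD206), Pf4 (a platelet-type chemokine), Cd163 (the haemoglobin scavenger receptor) and Lyve1 (a hyaluronan receptor), and they are known to hold class II-rich and class II-poor forms.

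The class II genes share upstream elements, of which the Y box, an inverted CCAAT, is short enough to find by letters, and 2 promoters are shown because H2-Aa and H2-Eb1 are the genes that split the cluster. Each stretch is the 120 bases before the RefSeq gene start in GRCm38.p6, read 5′ to 3′ on the gene's strand, with the letters TGATTGG in capitals. H2-Aa lies on the minus strand at chr17:34287824-34287943 with the motif starting 50 bases before the gene start, and H2-Eb1 lies on the plus strand at chr17:34305747-34305866 with the motif starting 61 bases before it.
H2-Aa: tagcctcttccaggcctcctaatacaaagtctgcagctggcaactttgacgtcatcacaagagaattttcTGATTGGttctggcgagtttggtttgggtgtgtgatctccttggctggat
H2-Eb1: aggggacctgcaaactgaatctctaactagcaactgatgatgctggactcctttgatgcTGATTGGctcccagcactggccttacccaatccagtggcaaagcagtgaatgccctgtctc
TGATTGG or its reverse complement CCAATCA stood in the 250 upstream bases of 7 of the 11 genes of the 14-gene class II list that matched the table, and in 2375 of all 32851 promoters (7.23%). The match is a description of letters and not of a bound site.

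Cluster 15 cells had a median of 4000.5 UMIs (unique molecular identifiers, which count captured transcripts) and 1539.5 genes, against 1437 UMIs and 639 genes in cluster 14 and 6122.5 UMIs and 2295 genes in microglia. Libraries held 1 to 38 cells of cluster 15 and 1229 to 174329 of its UMIs. No barcode occurred in more than 1 library within the cluster, and 1 of its barcodes also occurred in another library. The authors' doublet score was higher in cluster 15, with a median of 0.0486, than in cluster 14 (0.0114) and microglia (0.0157), and 136 cells carried both at least 3 macrophage markers and at least 3 microglia markers. The part of mixed droplets in the results below was not tested.

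Mrc1, Pf4 and F13a1, genes of border-associated macrophages, were among the 10 genes with the largest ratio to cluster 14, beside 1 class II gene, H2-Aa. Levels are CPM, a gene's UMIs scaled to the same fixed total of the cluster's UMIs in every library (the usual CPM scale), averaged over the 8 libraries with at least 10 cells in both immune clusters, and since the authors drew the clusters from these same genes they are a description with no test. Mrc1 averaged 2398 ± 746 CPM (SD, n = 8) in cluster 15, had no UMI in cluster 14 and averaged 4.05 ± 0.828 CPM in microglia. Pf4 averaged 2493 ± 930 CPM in cluster 15, again with no UMI in cluster 14. F13a1, the coagulation factor XIII A chain, averaged 972 ± 293 CPM and was found in 68.8% of cells. Cd163 averaged 593 ± 222 CPM, Cbr2, a carbonyl reductase, 449 ± 134 CPM and Lyve1 432 ± 211 CPM, and all 3 were without a UMI in cluster 14. Of the 12 macrophage markers, 9 had no UMI among the 309 cells of cluster 14.

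Of the 20 genes with the largest ratio to cluster 14, 5 encode chemokines or cytokines. Such genes were not particular to cluster 15. At least 3 of 24 listed cytokines and chemokines were found in 77.1% of its cells, 18.8% of cluster 14 and 91.1% of the deeper microglia. Their summed levels over pooled cells were 18390, 1645 and 8585 CPM, in that order. Ccl7, a monocyte attractant, averaged 2788 ± 1877 CPM, with no UMI in cluster 14 and 3.22 ± 2.87 CPM in microglia. Ccl2 averaged 3555 ± 3020 CPM in cluster 15 and 248 ± 95.1 CPM in microglia, Cxcl2 1870 ± 1338 CPM, Il1b 1252 ± 767 CPM and Ccl24, an eosinophil attractant, 974 ± 575 CPM. These varied widely between libraries, with Ccl2 running from 820 CPM in Cisplatin stim 3 to 10584 CPM in Cisplatin nonstim 1. Dab2, an endocytic adaptor, and Wfdc17, a secreted macrophage protein, were further members, at 1256 ± 300 and 752 ± 464 CPM. Outside those 20, Lyz2, the myeloid lysozyme, reached 6915 ± 880 CPM and 92.5% of cells, against 419 ± 225 CPM in cluster 14.

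S100a9 and S100a8, the calprotectin subunits of neutrophils, headed the ranking at means of 6916 and 6056 CPM, yet they were found in 3.75% of cells. In 9 cells at least 3 of 10 neutrophil markers were detected, and none of these cells was among those with 3 or more macrophage markers. The cells came from Cisplatin stim 3 (5 cells), PBS stim 2 (3 cells) and Cisplatin stim 1 (1 cell). Correspondingly, S100a9 stood at 42353, 12973 and 20675 CPM in those 3 libraries, in that order, and had no UMI in the other 9. Ngp and Camp, neutrophil granule proteins, at 1084 ± 2239 and 720 ± 1556 CPM, entered the ranking with them.

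Cluster 14 held the opposite set of genes. Sparc, a matrix-associated glycoprotein, averaged 2455 ± 522 CPM in cluster 14 and 34.4 ± 21.8 CPM in cluster 15, Olfml3 952 ± 204 against 45.1 ± 56.9 CPM and Tmem119 653 ± 150 against 30.3 ± 34.4 CPM. At least 3 of 10 microglia markers were present in 307 of 309 cells of cluster 14 (99.4%), in 4524 of 4530 microglia and in 145 of 240 cells of cluster 15 (60.4%). The 2 immune clusters therefore differed in which macrophage markers they carried as well as in depth.

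**Figure D1:**
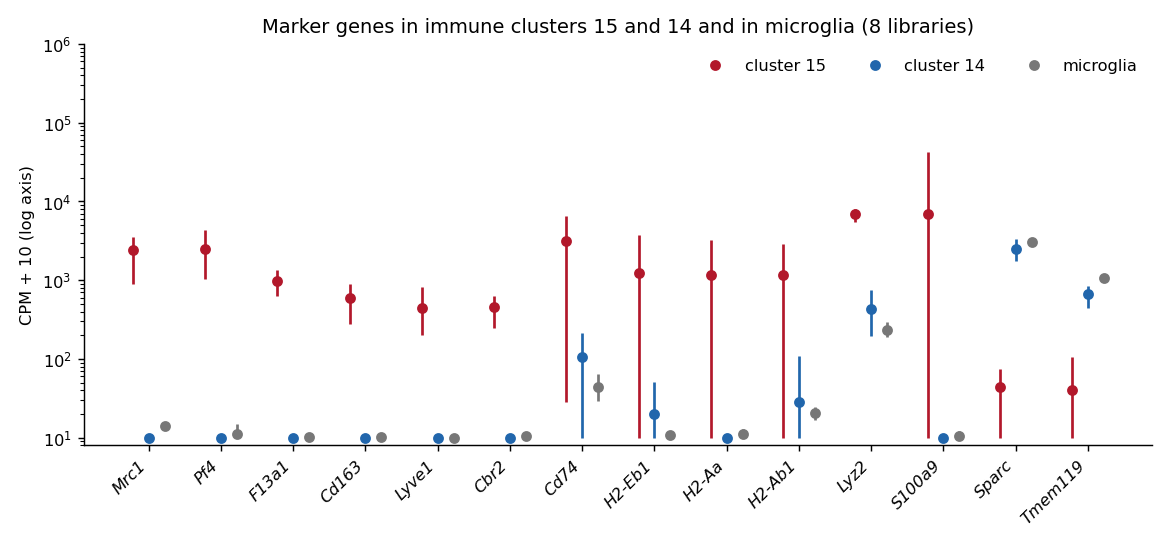
Levels of 14 marker genes in cluster 15 (red), cluster 14 (blue) and microglia (grey), with CPM plus 10 on a log axis. Points are means over 8 libraries and lines run from the lowest to the highest library; Mrc1, Pf4 and F13a1 have no UMI in cluster 14, and the class II genes span the whole range in cluster 15.

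Counted cell by cell, at least 3 of the 12 macrophage markers were present in 197 of 240 cells (82.1%, exact 95% binomial interval 76.6 to 86.7%). None of 309 cells of cluster 14 and 24 of 4530 microglia (0.530%) reached that number. Of the 43 remaining cells, 38 carried at least 2 class II genes or at least 3 markers of another leukocyte list. Markers of T cells reached 3 in 9 cells and of monocytes in 34 cells, of which 5 also held 3 or more macrophage markers. The monocyte list includes Lyz2 and Nr4a1, which were found in 92.5% and 50.4% of all cells of the cluster. For classical dendritic cells, 27 cells carried 3 or more markers, as did 280 of 4530 microglia. B cell markers reached 3 in 3 cells, with 9 of 12 genes detected in the cluster, and mast cell markers in 1 cell, with 4 of 8 genes detected. Cd79a, the mast cell proteases Cpa3 and Mcpt4 and the dendritic cell chemokines Ccl22 and Ccl17 had no UMI in the cluster. Intervals here and below cover counting error only.

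Class II expression was confined to a small set of cells and was high there. Of the 240 cells, 201 had no UMI of H2-Aa, H2-Ab1 or H2-Eb1, 4 had 1 of these genes, 3 had 2 and 32 had all 3. The 35 cells with at least 2 of them (14.6%, exact 95% interval 10.4 to 19.7%) carried 3 to 448 class II UMIs with a median of 87, a median of 2.07% of all their UMIs. Thinning every cell to 1000 UMIs, which left out 10 shallower cells, gave 32 of 230 cells (13.9%). In cluster 14 no cell of 309 carried 2 of the genes, which allows a share of up to 1.19% at the upper exact 95% limit, and in the deeper microglia 13 of 4530 did (0.287%). The cut at 2 genes was chosen after the values had been seen.

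Class II and macrophage markers overlapped in part. Of the 35 class II cells, 21 also carried 3 or more macrophage markers and 14 did not, while 176 cells had macrophage markers alone and 29 had neither. In the plot of single cells the class II cells sit among cells with few to a moderate number of macrophage markers. None of the 35 carried more than 9 of the 12 markers, while 11 other cells of the cluster carried all 12.

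**Figure D2:**
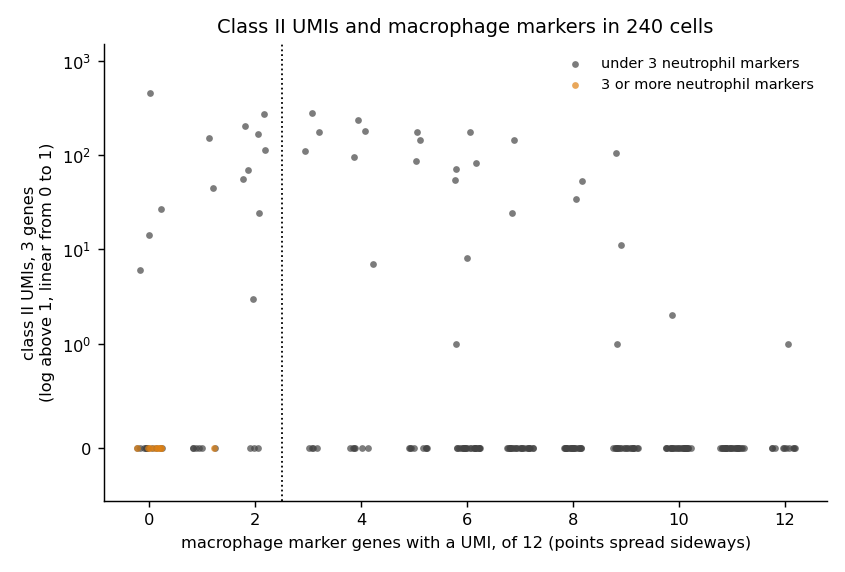
Summed UMIs of H2-Aa, H2-Ab1 and H2-Eb1 in each of the 240 cells against the number of the 12 macrophage marker genes with a UMI. Cells right of the dotted line have 3 or more of these genes and orange marks the 9 cells with 3 or more neutrophil markers; 201 cells lie at 0 class II UMIs, and 31 carry 10 or more.

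Within the cells that carry macrophage markers, those with class II differed in other genes from those without, in a description over pooled cells (21 cells with a median of 6082 UMIs and 172 cells with a median of 3333.5 UMIs). H2-DMa was found in 85.7% of the class II cells and 6.98% of the others, and H2-DMb1 in 71.4% and 14.5%. Cd52, a leukocyte surface glycopeptide, was found in 95.2% and 25.6%, at 1815 and 134 CPM, and Il1b in 76.2% and 25%. Lyve1 showed the reverse, with 1 UMI (7.29 CPM) in the class II cells and 487 UMIs (654 CPM) in the others. Folr2, a folate receptor, went from 442 CPM in the others to 14.6 CPM, Cd163 from 818 to 102 CPM and Clec10a, a C-type lectin, from 434 to 21.9 CPM. Fcna (ficolin A, a lectin that starts the complement pathway) and Cd209f (a DC-SIGN family lectin) had no UMI in the class II cells against 233 and 219 UMIs in the others, so 0 of 21 cells against 34.9% and 29.1%. The class II cells were the deeper of the pair. Ccr2, the monocyte chemokine receptor, was found in 19.0% of the class II cells and 1.16% of the others. Mrc1 was present in 95.2% and 94.8% of cells, at 860 and 3071 CPM. The split was drawn on class II genes, so no test is given.

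The remaining class II list members had uneven levels in cluster 15. Cd74 averaged 3146 ± 2102 CPM against 96.0 ± 76.1 CPM in cluster 14 and 34.4 ± 11.0 CPM in microglia, and was found in 27.1% of the cluster's cells. H2-Ab1 averaged 1154 ± 933, H2-Eb1 1209 ± 1178 and H2-Aa 1169 ± 1091 CPM. H2-DMa stood lower than in cluster 14, at 108 ± 71.9 against 215 ± 101 CPM, and H2-DMb1 was at 123 ± 88.1 against 86.7 ± 55.6 CPM. Ciita had 24 UMIs in 12 cells and none in cluster 14, and H2-Eb2 had 2 UMIs. H2-DMb2, H2-Oa and H2-Ob, whose products form or modify the peptide-loading chaperones, had 9, 5 and 5 UMIs. Of the endosomal proteases and reductases, Ctss was at 1655 ± 429 CPM against 7297 ± 1232 CPM in cluster 14, Lgmn at 825 ± 246 against 2630 ± 634 CPM and Ifi30 at 190 ± 47.1 against 144 ± 53.3 CPM.

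Cluster 15 made up between 0.164% and 2.27% of a library's cells. In PBS nonstim libraries 1 to 3 it held 9, 26 and 35 cells, in PBS stim 1, 38 and 30, in Cisplatin nonstim 22, 25 and 14 and in Cisplatin stim 7, 16 and 17. Its share was highest in PBS stim 2 at 2.27% (exact 95% interval 1.61 to 3.1%) and lowest in PBS stim 1 at 0.164% (0.00414 to 0.908%), so that group held both ends of the range. The share did not differ detectably with cisplatin (log2 ratio 0.04 ± 0.36 (SE), edgeR quasi-likelihood p = 0.923; exact two-sided permutation within batches p = 0.581 over 420 arrangements of 12 libraries) or with stimulation (log2 ratio 0.08 ± 0.36, p = 0.837; exact p = 0.757). Intervals of that width leave room for sizeable differences in either direction. The exact permutation used its own measure, a log2 difference in share, and not the edgeR ratio. That measure was 0.33 with cisplatin and -0.21 with stimulation, where its sign was opposite to that of the edgeR ratio.

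**Figure D3:**
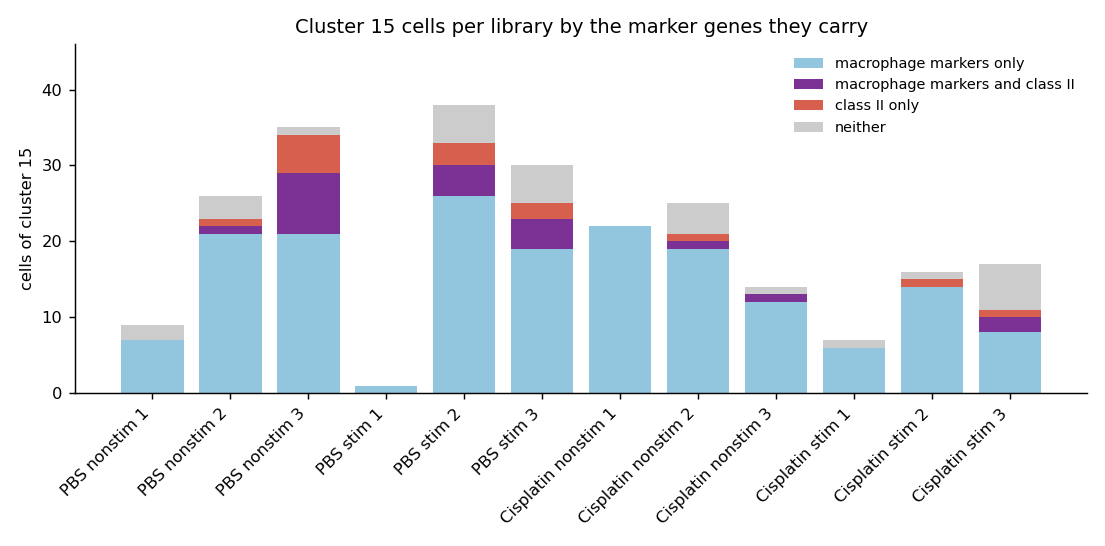
Number of cluster 15 cells in each of the 12 libraries, divided by whether they carry 3 or more macrophage markers, 2 or more class II genes, both or neither. Class II cells are present in the 8 libraries of the second batch and in none of the 4 libraries of the first.

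All 35 class II cells came from the second batch, where they were 35 of 201 cells (17.4%). The first batch had 0 of 39, which allows a share of up to 9.03% of its cells at the upper exact 95% limit. The batches differed in animals per library as well as in prefix, and these cannot be told apart. The 39 first-batch cells also came mostly from cisplatin libraries, with 22 from Cisplatin nonstim 1 and 7 from Cisplatin stim 1. Within the second batch class II cells made up 15 of 61 cells in PBS nonstim, 13 of 68 in PBS stim, 3 of 39 in Cisplatin nonstim and 4 of 33 in Cisplatin stim. By library the share was 7.69% and 37.1% in PBS nonstim 2 and 3, 18.4% and 20% in PBS stim 2 and 3, 8% and 7.14% in Cisplatin nonstim 2 and 3, and 6.25% and 17.6% in Cisplatin stim 2 and 3. The arms overlap, through PBS nonstim 2 and Cisplatin stim 3. The cisplatin libraries lay 11.1 percentage points below the PBS libraries on average (exact two-sided permutation p = 0.0857 over 70 arrangements of 8 libraries, of which 0.0286 is the smallest possible). Without PBS nonstim 3 the difference was -5.61 points (exact permutation p = 0.2), and without any other single library it ran from -15.4 to -9.88 points. Stimulated libraries lay 0.585 points above unstimulated ones (exact permutation p = 1), with -2.03 to 7.97 points when 1 library was left out, the highest without PBS nonstim 3.

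Class II levels also varied between libraries. H2-Eb1 stood at 908 and 3734 CPM in PBS nonstim 2 and 3, at 1139 and 1238 CPM in PBS stim 2 and 3, at 172 and 649 CPM in Cisplatin nonstim 2 and 3 and at 507 and 1834 CPM in Cisplatin stim 2 and 3, with no UMI in the first batch. PBS nonstim 3 was the highest library and Cisplatin nonstim 2 the lowest of the second batch. The summed level of H2-Aa, H2-Ab1, H2-Eb1 and Cd74 was 4465 and 16291 CPM in PBS nonstim 2 and 3, 6941 and 7108 CPM in PBS stim, 1863 and 5138 CPM in Cisplatin nonstim and 4475 and 11600 CPM in Cisplatin stim. The difference between cisplatin and PBS was -0.71 on the log2 scale (exact permutation p = 0.371) and that between stimulation and none 0.47 (exact permutation p = 0.543), neither past the spread between libraries. These sums alone do not separate the number of class II cells from the class II RNA in each. Per class II cell, UMIs of H2-Aa, H2-Ab1 and H2-Eb1 ran from 3 to 448 in PBS nonstim and 7 to 176 in PBS stim. They ran from 6 to 181 in Cisplatin nonstim and 45 to 278 in Cisplatin stim. The ranges overlap, and RNA per class II cell was not tested.

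Gene comparisons used the 9 libraries with at least 10 cells of the cluster, which left out PBS nonstim 1, PBS stim 1 and Cisplatin stim 1. Cisplatin nonstim 1 was then the only first-batch library, so the batch term takes up its values and the contrasts rest on the 8 libraries of the second batch, 2 a group. edgeR's quasi-likelihood test over 2292 genes, called at a Benjamini-Hochberg adjusted p under 0.05, found 6 genes that differed with cisplatin averaged over stimulation (0.262% of genes tested). Fcna rose (1 gene, 0.0436%), and Gadd45b, mt-Atp8, Lars2, AY036118 and Gm42418 fell (5 genes, 0.218%). Cisplatin nonstim against PBS nonstim gave 5 calls (0.218%), 1 higher (0.0436%) and 4 lower (0.175%), and these were the same genes without mt-Atp8. Gm42418, a predicted gene, and AY036118, a clone-named gene, fall outside the rule for named genes. Both are named here, Gm42418 after its values were seen.

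Fcna was rare outside cluster 15, with 16 UMIs in 19594 cells, against 241 UMIs in the cluster's 240. Its level was 33.2 and 28.7 CPM in PBS nonstim 2 and 3 and 56.0 and 40.3 CPM in PBS stim 2 and 3. In Cisplatin nonstim 1 to 3 it was 552, 382 and 285 CPM and in Cisplatin stim 2 and 3 460 and 378 CPM. Every cisplatin library lay above every PBS library, with means of 411 ± 99.8 CPM (SD, n = 5) and 39.6 ± 12 CPM (n = 4). The log2 fold change was 3.22 ± 0.29 (SE; edgeR quasi-likelihood, adjusted p = 0.000558) averaged over stimulation and 3.30 ± 0.43 (adjusted p = 0.0141) without stimulation. By cells, a UMI of Fcna was found in 4 of 70 cells of PBS nonstim, 10 of 69 of PBS stim, 32 of 61 of Cisplatin nonstim and 16 of 40 of Cisplatin stim, at median depths of 3985.5, 3140, 4331 and 6302 UMIs. The gene lies on the minus strand of chromosome 2 from 25624666 to 25628030 (GRCm38, GENCODE). Its promoter held no TGATTGG, which says only that the letters are not in that window.

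The 35 class II cells held no UMI of Fcna. Without them the log2 fold change was 2.88 (adjusted p = 0.00197, edgeR). Over the cells with 3 or more macrophage markers alone the difference was 3.30 (adjusted p = 0.00016). Without the cells that carry 3 or more microglia markers, and with libraries of at least 5 remaining cells, it was 1.86 and was not called (adjusted p = 0.741); that setting leaves out 145 of the 240 cells. Of the other macrophage markers none passed the test in either comparison. The median log2 fold change of the 12 with cisplatin averaged over stimulation was 0.13, ranging from -0.69 to 1.00, beside a median of -0.00289 over all genes tested. Lyve1, for example, stood at 282 to 411 CPM in the 4 PBS libraries of the fit and at 194 to 813 CPM in the 5 cisplatin libraries.

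Gadd45b, a stress-inducible gene of the growth arrest and DNA damage family, was lower with cisplatin. It stood at 421 and 620 CPM in PBS nonstim 2 and 3 and at 436 and 423 CPM in PBS stim 2 and 3. In Cisplatin nonstim 1 to 3 it was 140, 66.9 and 77.9 CPM and in Cisplatin stim 2 and 3 178 and 227 CPM, so the arms did not overlap within the fit. The log2 fold change was -1.98 ± 0.27 averaged over stimulation (edgeR adjusted p = 0.0083) and -2.96 ± 0.40 without stimulation (adjusted p = 0.0141). In the first batch, outside the fit, PBS nonstim 1 stood at 123 CPM and Cisplatin stim 1 at 300 CPM, which is the other order. Class II cells carried more Gadd45b than other macrophage-marker cells (743 against 239 CPM), and without them the fold change was -1.24 and did not pass (adjusted p = 0.186). With libraries of at least 5 cells it did not pass either (-1.48, adjusted p = 0.214).

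The other called genes are marked by ribosomal RNA or mitochondria. Gm42418 and AY036118 overlap on chromosome 17 between 39846958 and 39848788, at a locus known to collect ribosomal RNA reads, and their UMIs may not be separable; Lars2, a mitochondrial leucyl-tRNA synthetase on chromosome 9, is grouped with them here. Gm42418 was at 18857 to 38520 CPM in the 4 PBS libraries and 2085 to 8179 CPM in the 5 cisplatin libraries, a log2 fold change of -2.26 ± 0.26 (edgeR adjusted p = 0.00341). AY036118 changed by -5.28 ± 0.34 (adjusted p = 4.06e-05) and Lars2 by -2.53 ± 0.30 (adjusted p = 0.00341). Together the 3 genes made up 2.35 to 4.68% of the cluster's UMIs in second-batch PBS libraries and 0.592 to 0.879% in second-batch cisplatin libraries. In the first batch they made up 0.388% in PBS nonstim 1 and 0.407% in PBS stim 1, which held 1 cell. The first-batch cisplatin libraries were lower, at 0.249% in Cisplatin nonstim 1 and 0.187% in Cisplatin stim 1. Over all cells of a library, not cluster 15 alone, second-batch values were 1.87 to 3.65% after PBS and 0.417 to 0.782% after cisplatin. mt-Atp8, a mitochondrially encoded subunit of ATP synthase, changed by -1.82 ± 0.29 (adjusted p = 0.0299), a call made in 10 of 22 alternative settings. It was lost without any one of PBS nonstim 2 and 3, PBS stim 3, Cisplatin nonstim 2 and 3 or Cisplatin stim 3, with no batch term (adjusted p = 0.0625), with at least 5 cells per library (adjusted p = 0.0719) and without cells over 10% mitochondrial UMIs (adjusted p = 0.0894).

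With that ribosomal RNA-like share as a covariate, neither Fcna (3.14, edgeR adjusted p = 0.886) nor Gadd45b (-0.98, adjusted p = 0.978) nor mt-Atp8 (-3.52, adjusted p = 0.446) was called averaged over stimulation. Without stimulation Gadd45b was at -1.78 (adjusted p = 0.988). The share does not overlap between the second-batch arms. The part of the ribosomal RNA-like share in these results was otherwise not tested. Gadd45b lost its call without PBS nonstim 3, Cisplatin nonstim 2 or Cisplatin nonstim 3 (adjusted p up to 0.0712), and Fcna without stimulation lost its call without PBS nonstim 2 or 3 or Cisplatin nonstim 2 (adjusted p up to 0.294). Averaged over stimulation Fcna passed with each of the 9 libraries left out.

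**Figure D4:**
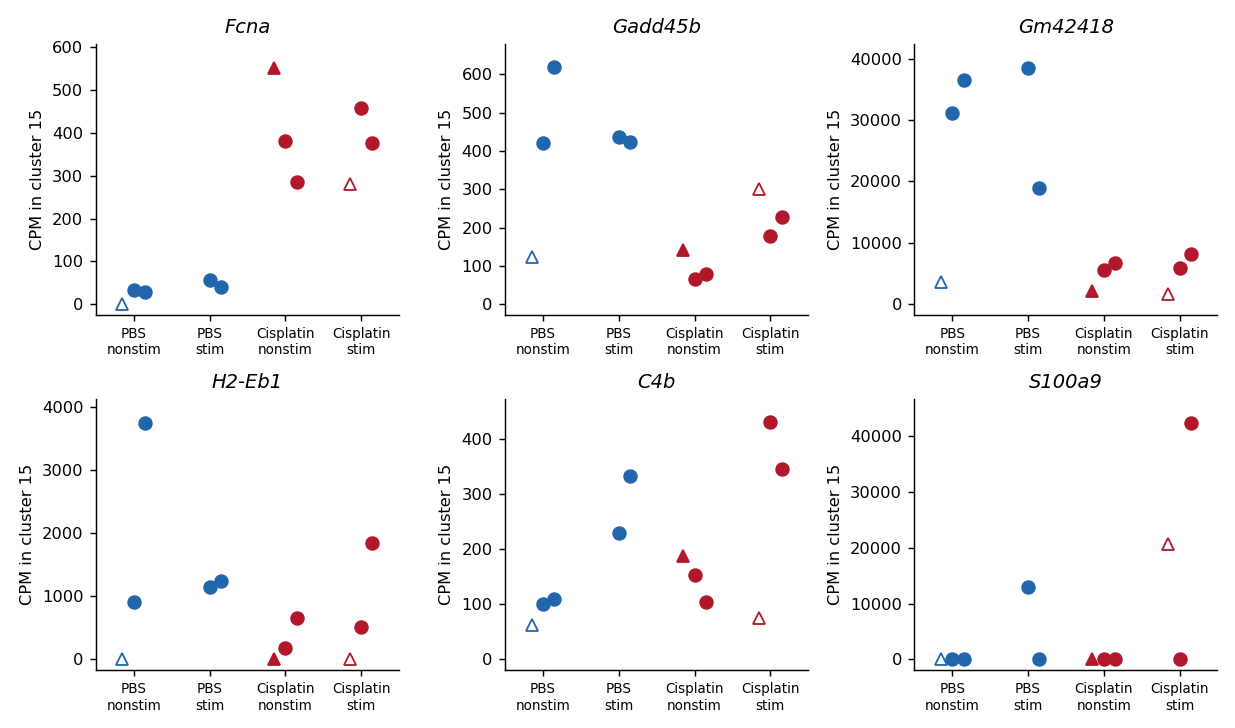
CPM in cluster 15 of 6 genes by group, 1 point per library (triangles, first batch; circles, second batch; blue, PBS; red, cisplatin; open, fewer than 10 cells and outside the fit; PBS stim 1, with 1 cell, is not drawn). Fcna lies at 285 CPM or more in the fitted cisplatin libraries and at 56.0 CPM or less in the PBS libraries, while H2-Eb1 overlaps between arms and S100a9 is present in 3 stimulated libraries.

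Of the response lists, Gadd45b was the 1 called gene with cisplatin averaged over stimulation, where 0.262% of all genes were called, and the other members are given as values. Chaperones had 13 of 14 tested members below 0 with a median log2 fold change of -0.68; Dnaja1, an Hsp70 partner, was at -1.35 ± 0.29 (edgeR adjusted p = 0.178) and Hspa8, the constitutive Hsp70, at -0.67 ± 0.20 (adjusted p = 0.27). Cytokines and chemokines had 14 of 19 below 0, with a median of -0.86; Cxcl1, a neutrophil attractant, was at -4.77 ± 1.12 (adjusted p = 0.183) and Ccl6 at 2.56 ± 0.60 (adjusted p = 0.179). Immediate early genes had 20 of 24 below 0 with a median of -0.40, Egr2 among them at -1.24 ± 0.41 (adjusted p = 0.294). The interferon list had 12 of 13 below 0 with a median of -0.45, where Ifi27l2a stood at -0.91 ± 0.29 (adjusted p = 0.273) and Cxcl10 at -2.54 ± 1.11 (adjusted p = 0.433).

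Antigen presentation genes were not called either. Class I genes had 11 of 12 tested members below 0 with a median of -0.39; H2-Q4 stood at -1.02 ± 0.37 and B2m, the class I light chain, at -0.57 ± 0.21 (edgeR adjusted p = 0.336 and 0.348). Class II genes had 6 of 9 below 0 with a median of -0.44; H2-Eb1 was at -1.30 ± 0.54 and H2-DMa at -0.76 ± 0.33 (adjusted p = 0.428 and 0.433). Without stimulation the class II median was -1.26, with H2-Eb1 at -2.67 ± 0.80 (adjusted p = 0.484) and H2-DMa at -2.08 ± 0.51 (adjusted p = 0.396), and class II cells were fewest in that group. Costimulation genes had 7 of 11 below 0, with Cd83, a maturation marker, at -1.56 ± 0.47 (adjusted p = 0.27) and Fcgr2b at 0.38 ± 0.23 (adjusted p = 0.561).

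Lists with medians above 0 were fewer. Both cold-inducible RNA-binding genes lay above 0, Cirbp at 1.61 ± 0.32 (edgeR adjusted p = 0.125) and Rbm3 at 1.20 ± 0.30 (adjusted p = 0.198). Glucocorticoid-responsive genes had 9 of 12 above 0 with a median of 0.44, with Klf9 at 1.96 ± 0.56 (adjusted p = 0.258) and Tsc22d3 at 0.70 ± 0.22 (adjusted p = 0.273). Complement and scavenger genes had 14 of 20 above 0 with a median of 0.08, led by Lgals3 (galectin 3) at 1.85 ± 0.51 (adjusted p = 0.258) and Cd9 at 1.27 ± 0.47 (adjusted p = 0.343). The p53 targets, which DNA damage can induce, had 4 of 5 tested members below 0, Plk2 at -1.65 ± 0.54 (adjusted p = 0.281) and Btg2 at -0.17 ± 0.30 (adjusted p = 0.862). Lists of other cell types also had medians away from 0, none with a called gene. Microglia markers had 5 of 6 tested members below 0 with a median of -0.80, monocyte markers 7 of 9 above 0 with a median of 1.12, neutrophil markers 5 of 6 above 0 with a median of 0.86 and oligodendrocyte genes 3 of 3 above 0 with a median of 1.42, and their part in the results was not tested. The neutrophil count and median include S100a8 (0.93, SE 9637) and S100a9 (0.89, SE 8620). Neither had a UMI in an unstimulated library, so their values are not usable estimates of a cisplatin effect. Cell cycle genes were mixed, Hmgb2 at 0.85 ± 0.57 and Tubb5 at 0.42 ± 0.33 (adjusted p = 0.589 and 0.65).

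**Figure D5:**
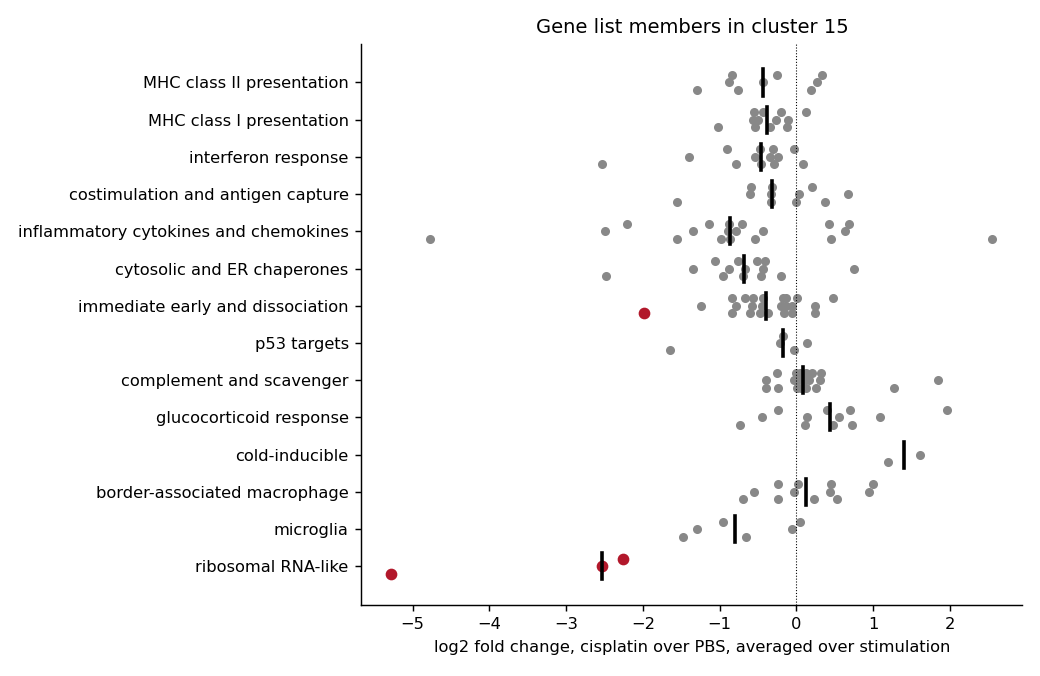
Log2 fold changes of cisplatin over PBS, averaged over stimulation, for tested members of 14 gene lists in cluster 15; each point is a gene, black bars are list medians and red marks the called genes. The ribosomal RNA-like genes have the lowest median, and Gadd45b is the one called gene of the immediate early list.

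Stimulation gave no calls at this threshold. Between Cisplatin stim and Cisplatin nonstim edgeR called 0 of 2292 genes (0%), with 111 below 0.05 before adjustment, and DESeq2 called 4. Between PBS stim and PBS nonstim edgeR called 0 (0%), with 65 below 0.05 before adjustment, and DESeq2 called 4. For the interaction of cisplatin and stimulation edgeR called 0 (0%), with 98 below 0.05 before adjustment, and DESeq2 called 0. None of these counts before adjustment exceeds the share of 0.05 of tested genes that evenly spread p-values would give. The class II list had 8 of 9 tested members above 0 in cisplatin mice, with a median log2 fold change of 1.47 beside 0.04 over all genes, and 7 of 9 below 0 in PBS mice, with a median of -0.44 beside 0.02. These contrasts share libraries with the cisplatin comparisons.

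The genes with the smallest p are given as values. In cisplatin mice these were Dusp5, a nuclear ERK phosphatase, at -4.28 ± 0.76, Tnfaip2 at 4.49 ± 0.87, H2-DMa at 2.47 ± 0.51, C4b at 1.77 ± 0.38 and Ncf1, a subunit of the phagocyte oxidase, at 1.90 ± 0.46 (edgeR adjusted p = 0.425 to 0.614). H2-DMa was at 9.35, 28.7 and 51.9 CPM in Cisplatin nonstim 1 to 3 and 188 and 194 CPM in Cisplatin stim 2 and 3. H2-DMb1, the second smallest p of the class II list, was at 1.76 ± 0.55 (adjusted p = 0.881). In PBS mice the smallest were C4b at 1.40 ± 0.37, Swap70 at -1.66 ± 0.48, Klf4 at 1.19 ± 0.34, Ehd1 at 1.47 ± 0.43 and Arrdc3 at -2.01 ± 0.60 (adjusted p = 0.999), and of the class II list Ifi30 at -0.81 ± 0.37 and H2-Eb1 at -0.98 ± 0.74. In the interaction they were Bmp2 at 3.54 ± 0.81, H2-DMa at 2.64 ± 0.65, Dusp5 at -3.94 ± 0.99, Nr4a2 at -6.83 ± 1.69 and Stap1 at -2.72 ± 0.72, with H2-Eb1 at 2.75 ± 1.08 (adjusted p = 0.97).

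C4b, the complement component C4, stood among the 5 in both stimulation contrasts. It was at 99.7 and 109 CPM in PBS nonstim 2 and 3, 230 and 332 CPM in PBS stim 2 and 3, 187, 153 and 104 CPM in Cisplatin nonstim 1 to 3 and 432 and 345 CPM in Cisplatin stim 2 and 3. Stimulated and unstimulated libraries of the fit did not overlap. Cisplatin stim 1, outside the fit with 7 cells, stood at 74.9 CPM, below all but 1 of the unstimulated libraries that hold a UMI of the gene. Without the cells that carry 3 or more microglia markers the difference in cisplatin mice was -4.42, the other direction. In that fit Cisplatin nonstim 2 and Cisplatin stim 3 were the only libraries of their groups, so the value has no spread within them.

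The 9 cells with 3 or more neutrophil markers were all in stimulated libraries, while 1 or 2 such markers were found in 16 of 109 cells from stimulated and 19 of 131 cells from unstimulated libraries. In the fit S100a9 was without a UMI in the 5 unstimulated libraries, in PBS stim 3 and in Cisplatin stim 2, so PBS stim 2 and Cisplatin stim 3 alone carried it, and it was not called in either arm (edgeR adjusted p = 0.999 and 0.881). The 9 cells are too few for a share per group to be compared.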

How the data were processed

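Hippocampal cells were profiled by droplet single-cell RNA sequencing in 12 libraries. The authors deposited UMI counts per cell and gene, and per the submitters' processing notes Cell Ranger 5.0.0, Scanpy and mm10 were used. The authors also deposited a mitochondrial percent, a doublet score, a mean score per gene and a total signal per cell with decimals, and these deposited values enter no test. Mitochondrial shares here were computed from the counts, since the deposited percent had a correlation of -0.067 with the 13 mitochondrially encoded genes. No further doublet call was made. Clusters and cell types are the authors'.

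Counts were summed per library over cluster 15 and tested with edgeR 4.0.16 in R 4.3.3 (filterByExpr, TMM, group and batch, quasi-likelihood test, Benjamini-Hochberg adjustment over 2292 genes) in the 9 libraries with at least 10 cells. DESeq2 1.42.0 was an alternative. The procedure was tested on simulated data. Replicates are separate libraries, mostly of pooled animals, and p-values measure the spread between libraries. Totals of the cluster ran from 1229 to 174329 UMIs per library, and 3 UMIs, the limit a count of 0 allows, equal 17.2 to 2441 CPM.

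The cluster, markers and gene lists were chosen with earlier results of these data known. The rule named the 20 genes highest and 10 lowest against cluster 14, 10 against microglia, every called gene except predicted (Gm), Rik and clone-named genes, the 5 smallest p where none was called, and 2 genes per response list; a selection of these is printed, and some are not reported here.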

Additional observations from a re-analysis of the deposited data

Results flagged for a closer look

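Fcna stood at 280.9 CPM in Cisplatin stim 1, a library with 7 cells that entered no gene comparison, while the other first-batch libraries outside the fit, PBS nonstim 1 with 9 cells and PBS stim 1 with 1 cell, had no UMI of it. A count of 0 allows up to 92.3 CPM in PBS nonstim 1 and 2441 CPM in PBS stim 1, so only the first of these lies below the Cisplatin stim 1 value.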

How the results depend on the processing

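Counts of called genes are given in the order cisplatin averaged over stimulation, Cisplatin nonstim against PBS nonstim, Cisplatin stim against Cisplatin nonstim, PBS stim against PBS nonstim and the interaction, and were 6, 5, 0, 0 and 0 in the reported fit. They were 16, 7, 4, 4 and 0 with DESeq2, 79, 60, 51, 25 and 17 with no filter on low counts, 3, 1, 0, 0 and 0 with libraries of at least 5 cells, 3, 3, 1, 9 and 2 with the ribosomal RNA-like share as a covariate, 5, 3, 0, 0 and 0 without cells over 10% mitochondrial UMIs, 8, 5, 0, 0 and 0 over cells with 3 or more macrophage markers and 1, 1, 0, 0 and 0 without cells with 3 or more microglia markers at 5 or more cells. With at least 20 cells Cisplatin nonstim against PBS nonstim had 9 calls. The causes were not tested. Replicate numbers did not pair the libraries (correlations of same-numbered deviations from -0.401 to 0.167), and with the replicate block the counts were 5, 3, 0, 0 and 0, where mt-Atp8 with cisplatin averaged over stimulation lost its call (edgeR adjusted p = 0.0938). With the Cisplatin stim numbers crossed the replicate block gave 8, 5, 9, 8 and 0. That crossing was not planned in advance and rests on the libraries that gave the correlations above, so its counts are values only. The ribosomal RNA-like covariate, the macrophage-marker cells and the 5-cell fit without microglia-marker cells were not planned in advance either. Nor was the fit without the class II cells, used above for Fcna and Gadd45b. Leaving out 1 library at a time gave 4 (without Cisplatin nonstim 3) to 23 (without Cisplatin stim 2), 1 (without Cisplatin nonstim 2) to 9, 0 to 5 (without Cisplatin stim 2), 0 to 1 (without PBS stim 2) and 0 to 0 calls.

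The log2 share of the cluster by edgeR ran from -0.19 to 0.33 with cisplatin and from -0.22 to 0.32 with stimulation when 1 library was left out. It was -0.23 with cisplatin in the second batch alone. Among immune cells the measure of the permutation was -0.10 with stimulation, beside -0.21 among all cells. The summed class II level ran from -1.14 to -0.27 with cisplatin and from -0.018 to 1.02 with stimulation. Of 1165 pairs of a named gene and a setting, 1069 kept direction and side of the threshold, 49 lost a call, 28 gained one and 19 changed sign. With cisplatin averaged over stimulation the changes of sign were Btg2 at 0.0070 with no batch term and 0.38 without microglia-marker cells, Ifi27l2a at 0.12 without those cells, Hmgb2 at -0.41 over macrophage-marker cells, and, with the ribosomal RNA-like covariate, Hmgb2 at -0.87, H2-Eb1 at 2.24, Fcgr2b at -0.71, Tubb5 at -0.60, Gm42418 at 0.061 and Rbm3 at -0.19. Gm42418 is itself part of that share, so its value with the covariate is no separate check. With that covariate H2-Eb1 was at 1.72 in Cisplatin nonstim against PBS nonstim. C4b in Cisplatin stim against Cisplatin nonstim was at -4.42 without microglia-marker cells, and over macrophage-marker cells Ifi30 was at 0.18 and H2-Eb1 at 0.057 in PBS stim against PBS nonstim. With 1 library left out Btg2 ran from -0.54 to 0.072, Cxcl10 from -4.19 to 0.60, Hmgb2 from -0.42 to 1.29 and H2-Eb1 in PBS mice from -1.75 to 0.42. Fits without microglia-marker cells at 10 or more cells could be made for Cisplatin stim against Cisplatin nonstim alone. There Cisplatin nonstim 2 and Cisplatin stim 3 were the only libraries of their groups.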

Other observations

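Cells with lymphocyte genes were also present in cluster 15. At least 3 T cell or NK cell markers were found in 10 cells, none of which carried 3 or more macrophage markers. T cell markers reached 3 in 1 cell of PBS nonstim 3, 2 cells of PBS stim 2, 3 cells of PBS stim 3, 2 cells of Cisplatin nonstim 2 and 1 cell of Cisplatin stim 3. In cluster 14 and in microglia no cell reached 3 T cell markers.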
